A study of Mus musculus with 6 samples.

Results

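The genes of translation initiation factors were examined in RNA-seq counts of small-intestinal group 3 innate lymphoid cells (ILC3s), lymphocytes without antigen receptors that guard mucosal surfaces. Members were the protein-coding genes whose symbol starts with Eif and a digit from 1 to 6, without the Eif2ak kinase genes and the Eif2s3 genes, which gave 49 of 55401 gene identifiers in the deposited table. All libraries were labelled as ILC3s of the lamina propria of wild-type mice, which the protocol text calls pups. They had been treated beforehand with vehicle (3 libraries) or with PEox (3 libraries), a name the labels do not spell out. The sources used here give no dose, duration, exact age, sex or pooling, nor whether the treatment reached the cells in the mouse or in culture. Separate animals per library are not stated either, and all p-values rest on the spread among the 3 libraries of a group, which may be technical. The study title sets the comparison within work on epithelial ferroptosis and ILC3 dysfunction in necrotizing enterocolitis of newborns.

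Translation initiation brings the small ribosomal subunit, the initiator tRNA and the start codon of an mRNA together. The factor eIF2 delivers the initiator tRNA as a GTP-bound complex and is recharged by the exchange factor eIF2B. The multisubunit factor eIF3, with eIF1, eIF1A and eIF5, holds the preinitiation complex on the small subunit, while eIF4E, eIF4G and the helicase eIF4A, together called eIF4F, bind the capped end of the mRNA and unwind it. Lymphocytes that become activated raise protein synthesis, and both eIF2 and eIF4E are points at which stress and nutrient signals restrain it.

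The libraries held between 56252806 and 66849230 counts, and 1.05% to 1.08% of the counts of a vehicle library and 0.966% to 0.994% of those of a PEox library fell on the 49 genes. The protocol text names sorted epithelial cells, whereas 7 ILC3 markers (among them Il7r and Il22) summed to between 8528 and 8679 CPM (counts scaled to a common library size with TMM factors) in vehicle and between 4495 and 4601 in PEox. The 6 epithelial markers, Epcam and keratin genes among them, summed to between 97.3 and 111 CPM and between 58.3 and 66.0. Sums of 5 markers of dividing cells lay at 620.2 to 634 CPM in vehicle and 83.7 to 96.9 in PEox, with 5 of 5 lower. Those of B and plasma cells lay at 256 to 278 and 34.3 to 40.4 (6 of 6 lower), of T cells at 96.1 to 106 and 32.2 to 36.9 (5 of 5 lower) and of mast cells at 45.8 to 49.6 and 8.67 to 13.0 (4 of 5 lower). Sums of erythroid markers lay at 2753 to 2799 and 5118 to 5803 (5 of 5 higher), of stroma and endothelium at 119 to 146 and 254 to 275 (2 of 3 tested higher) and of myeloid cells at 276 to 279.7 and 228 to 252 (1 higher and 2 lower of 6). Of the ILC3 markers 1 of 7 rose and 2 fell, so their lower sum does not stand for most of them. Of the epithelial markers 3 of 5 tested fell. No marker on these lists was at 0 in all libraries. The part of these markers in the changes of initiation factor genes was not tested, and in bulk RNA fewer cells of a type cannot be told apart from less RNA per cell.

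Promoter sequences are shown first for 5 genes, since 2 pairs of paralogues that moved in opposite directions (Eif5a and Eif5a2, Eif4a1 and Eif4a2) and the eIF3 gene with the largest fall (Eif3k) are among the results. Each is the stretch of 250 bases before a transcription start listed by RefSeq on GRCm38.p6, printed 5′ to 3′ on the strand of the gene. Capitals mark matches, on either strand, to the E-box CACGTG, the ETS motif CCGGAAGT, the antioxidant response element core TGACNNNGC or the palindromic NRF1 motif (in Eif3k alone). Lower case marks all other bases. The E-box and the antioxidant core share 2 bases where their capitals run together in Eif5a and Eif5a2. The Eif5a stretch lies at chr11:69921387-69921636, minus strand, that of Eif5a2 at chr3:28781027-28781276, plus strand, that of Eif4a1 at chr11:69672424-69672673, minus strand, that of Eif4a2 at chr16:23107218-23107467, plus strand and that of Eif3k at chr7:28981889-28982138, minus strand.
Eif5a: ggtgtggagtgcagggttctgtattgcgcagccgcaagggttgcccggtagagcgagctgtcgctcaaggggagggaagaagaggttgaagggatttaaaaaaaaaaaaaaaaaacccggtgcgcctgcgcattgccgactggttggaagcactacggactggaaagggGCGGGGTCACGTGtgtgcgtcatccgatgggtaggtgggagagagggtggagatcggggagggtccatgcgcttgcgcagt
Eif5a2: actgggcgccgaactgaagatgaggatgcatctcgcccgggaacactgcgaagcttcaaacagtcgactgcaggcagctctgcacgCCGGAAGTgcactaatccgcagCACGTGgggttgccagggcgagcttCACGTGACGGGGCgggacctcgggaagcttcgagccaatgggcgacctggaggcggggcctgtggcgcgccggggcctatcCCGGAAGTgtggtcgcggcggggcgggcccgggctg
Eif4a1: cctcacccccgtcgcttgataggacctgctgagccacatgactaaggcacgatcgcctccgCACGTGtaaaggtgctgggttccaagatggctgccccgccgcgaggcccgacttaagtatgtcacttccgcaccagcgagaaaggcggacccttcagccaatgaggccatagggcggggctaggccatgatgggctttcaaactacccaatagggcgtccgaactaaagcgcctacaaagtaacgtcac
Eif4a2: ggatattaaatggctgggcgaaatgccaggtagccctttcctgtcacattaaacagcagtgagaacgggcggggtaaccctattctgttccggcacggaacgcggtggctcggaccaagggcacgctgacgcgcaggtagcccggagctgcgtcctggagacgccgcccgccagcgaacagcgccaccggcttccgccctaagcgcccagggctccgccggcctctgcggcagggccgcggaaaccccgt
Eif3k: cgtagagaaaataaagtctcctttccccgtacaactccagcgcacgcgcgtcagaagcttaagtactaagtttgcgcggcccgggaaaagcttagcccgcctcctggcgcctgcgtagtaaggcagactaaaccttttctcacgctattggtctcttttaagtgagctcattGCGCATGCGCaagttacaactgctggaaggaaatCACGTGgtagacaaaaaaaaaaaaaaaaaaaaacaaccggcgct
The E-box, the sequence bound by MYC and other basic helix-loop-helix factors, stood in the printed stretch of Eif5a, Eif5a2, Eif4a1 and Eif3k. It stood 2 times in Eif5a2, which also held the ETS motif 2 times. In Eif4a2 none of the searched motifs was found.

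Of the 49 genes, 37 had a matching promoter entry, searched over 300 bases from 250 before to 50 after the start. The E-box was present in 9 of these 37 (24.3%) and in 8.08% of 16512 promoters of protein-coding genes searched in the same way. That background was not limited to genes tested here, nor matched for base composition. The 9 genes were Eif1b, Eif3a, Eif3f, Eif3k, Eif4a1, Eif4g1, Eif4h, Eif5a and Eif5a2. With any start listed for the gene, it was present in 10 of 37 (27.0%) against 9.18% of genes, Eif4e being the tenth. By outcome, the E-box stood in 5 of 16 lower genes, 1 of 4 higher genes and 3 of 17 that did not pass the test. The higher gene was Eif5a2, which was scarce and lost its call in several alternatives. The ETS motif was found in 6 of 37 (16.2%, against 5.61% of all), the antioxidant core in 7 (18.9%, against 13.2%) and the NRF1 motif in Eif3k alone (2.70%, against 1.39%). The amino acid response motif TGATGNAAT was found in 0 of 37 and in 0.8% of all. These matches describe letters in a window and are no measure of binding.

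Most tested genes of eIF2, eIF3, the eIF4E cap binders and the group of eIF1 and eIF1A were lower in PEox, while 5 genes spread over the eIF4 and eIF5 families were higher. Of 49 genes 47 passed the filter on low counts, and 22 of them (46.8%) fell and 5 (10.6%) rose at an adjusted p under 0.05 in the edgeR quasi-likelihood test, where 18.8% of all 18253 tested genes fell and 18.3% rose (37.1% in either direction). The remaining 20 did not pass. With at least 5 CPM in 3 libraries, 27 members were lower and 5 higher. Of the 10743 genes at that level, 29.6% were lower and 30.9% higher (60.6% in either direction). The median log2 fold change (PEox against vehicle) was -0.24 over the 47 genes and 7e-04 over all tested genes, and 35 of the 47 lay below 0 against 50% of all genes. CPM values of the groups did not overlap for 24 lower and 6 higher members, 51.1% and 12.8%, where 26.5% and 24.1% of all genes were apart in these directions (50.6% in either). The genes that rose were Eif4g2, Eif4a2, Eif4b, Eif5 and Eif5a2.

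**Figure D1:**
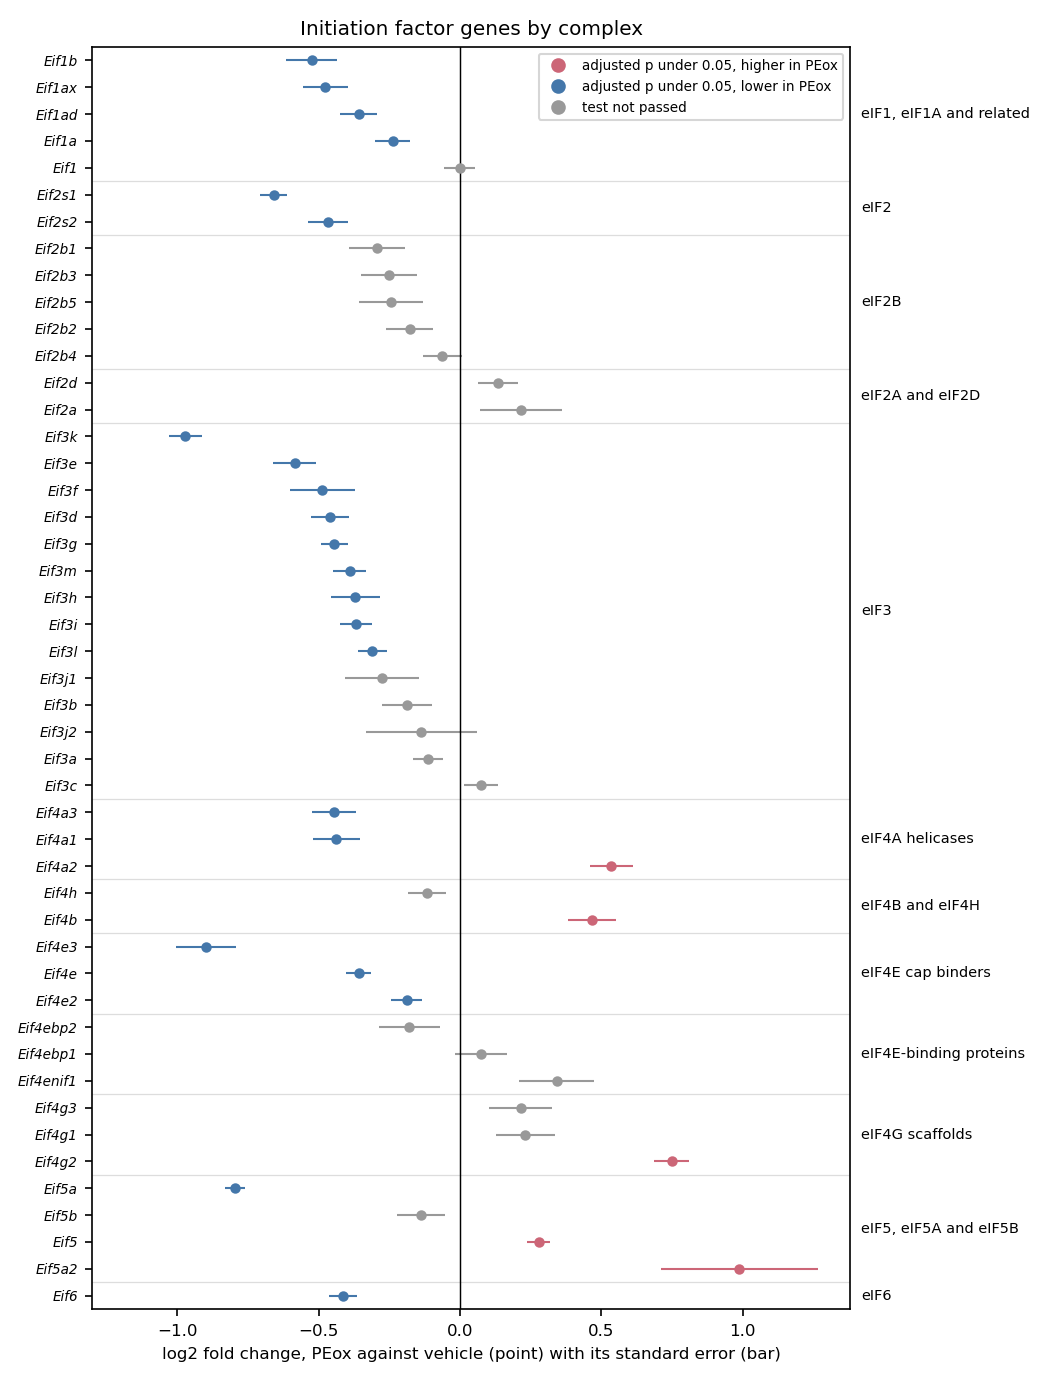
Log2 fold change of PEox against vehicle (x axis) for each of the 47 tested initiation factor genes (y axis), grouped by complex; points are estimates of the edgeR fit, bars are standard errors, blue and red points passed the test as lower and higher and grey points did not. Points of eIF2, eIF3 and the eIF4E cap binders that passed lie left of 0, from -0.97 for Eif3k to -0.19 for Eif4e2, while Eif4a2, Eif4b, Eif4g2, Eif5 and Eif5a2 lie to the right.

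These directions are relative to the scaling. Scaling by library size alone moved the median of all tested genes to 0.14, and then 10 members were higher and 19 lower, where 24.2% of all genes were higher and 14.9% lower (39% in either direction). The higher share of the calls was 34.5% for the members and 61.9% for all genes under that scaling, and 18.5% and 49.3% with TMM factors. Longer transcripts also had higher log2 fold changes in these libraries. The median over all tested genes was -0.47 for transcripts up to 1000 nucleotides, -0.24 above that and up to 2000, -0.05 up to 3000, 0.19 up to 4000, 0.28 up to 6000 and 0.23 above 6000. The fit of each gene was therefore recomputed after taking out the dependence of every library on length and GC of the transcript. Group overlaps, paralogue shares, levels per kb and marker sums were not recomputed in this way. Then 28 members were called, 23 lower and 5 higher, where 16.5% of all genes were lower and 16.3% higher (32.8% in either direction). Values net of that dependence are called net of length and GC. Of the 27 members called before, 18 lower and 4 higher ones kept their call. The calls of Eif1b, Eif3g, Eif3h, Eif4a3 and Eif5a2 were lost, none changed direction, and 6 members gained a call (Eif1 higher, and Eif2b3, Eif3a, Eif3j1, Eif4ebp2 and Eif5b lower).

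**Figure D2:**
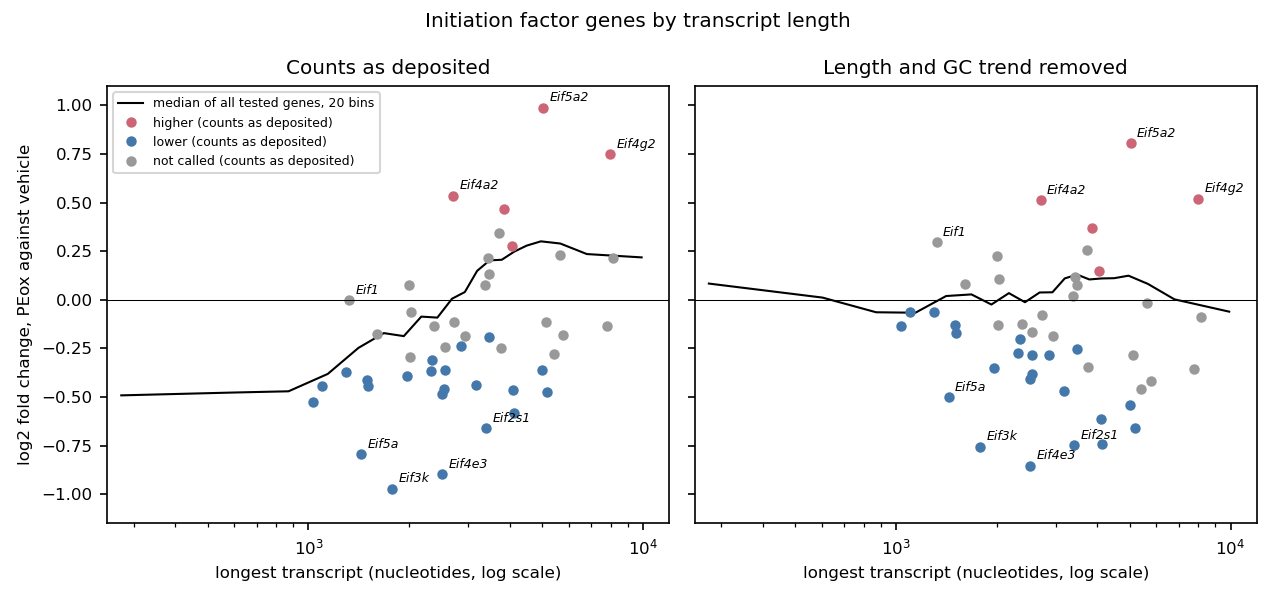
Log2 fold change of PEox against vehicle (y axis) against the length of the longest transcript in nucleotides (x axis, log scale) for the 47 tested initiation factor genes, in the counts as deposited (left) and after removal of the length and GC trend (right). Colours give the call in the counts as deposited and the black line is the median of all tested genes in bins of length. Eif3k, Eif4e3 and Eif2s1 lie far below that line, and Eif4g2 and Eif4a2 above it, in both panels.

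The 2 member genes of eIF2, which carries the initiator tRNA, both fell, where 18.8% of all tested genes fell. The Eif2s3 genes, also of eIF2, were left out by the member rule, so the whole factor is not covered. Eif2s1 (ENSMUSG00000021116) encodes the alpha subunit, whose phosphorylation by stress kinases blocks recharging, and it had 259, 260.5 and 251 CPM in the 3 vehicle libraries and 156, 163 and 169 in the 3 PEox libraries. All PEox values lay below all vehicle values, and the difference was -0.66 ± 0.05 SE in log2 units (edgeR adjusted p = 2.9e-05). Net of length and GC it was -0.75 (adjusted p = 2.16e-05). Eif2s2, the beta subunit, had 104, 109 and 103 CPM in vehicle and 79.6, 79.7 and 70.2 in PEox, again without overlap, and fell by 0.47 in log2 units (edgeR adjusted p = 0.00120).

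Eif2b1 to Eif2b5 encode the subunits of the exchange factor eIF2B, and 0 of these 5 genes passed the test, although each lay below 0. Their log2 fold changes ran from -0.29 (Eif2b1, edgeR adjusted p = 0.0511) to -0.06 (Eif2b4, adjusted p = 0.553). Before adjustment the edgeR p was 0.019 for Eif2b1 and 0.036 for Eif2b3, and above 0.05 for the others. Net of length and GC, Eif2b2 and Eif2b4 lay above 0 (0.08 and 0.11), and Eif2b3 was called lower (-0.34, adjusted p = 0.0285). Eif2b1 had 68.8, 61.0 and 73.4 CPM in vehicle and 49.8, 60.3 and 55.7 in PEox, and its groups, like those of Eif2b3, did not overlap. Of all tested genes, 26.5% were apart in this direction. Eif2b1 passed without vehicle library 2 (adjusted p = 0.0442) or PEox library 2 (0.0338), Eif2b2 without PEox library 1 (0.0407), Eif2b3 without PEox library 3 (0.0352) and Eif2b5 without vehicle library 3 (0.0247). In every other fit with a library left out, the eIF2B genes did not pass. Under library size scaling their edgeR adjusted p ran from 0.273 (Eif2b1) to 0.75 (Eif2b2). DESeq2 and limma-voom called 1 of the 5 lower, Eif2b1 (adjusted p = 0.0259 and 0.0417). Eif2a and Eif2d encode factors that can deliver tRNA without eIF2, and neither passed (log2 fold changes 0.22 and 0.14, edgeR adjusted p = 0.301 and 0.179), although Eif2d was called higher under library size scaling (0.27, adjusted p = 0.0141).

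Of the genes of the scanning factors eIF1 and eIF1A, with the related Eif1ad, 4 of 5 fell, where 18.8% of all tested genes fell. Eif1, the more abundant of the eIF1 genes, did not. It had 905, 911 and 999.97 CPM in vehicle and 984, 946 and 884 in PEox, with overlapping groups. Its log2 fold change was -8e-04 ± 0.06 SE (edgeR adjusted p = 0.993), and 0.14 under library size scaling (adjusted p = 0.0929). Eif1b, a close paralogue, had 64.8, 66.4 and 75.2 CPM in vehicle and 48.5, 50.9 and 44.1 in PEox and fell by 0.52 (edgeR adjusted p = 0.00238). Both genes have short transcripts (1322 and 1035 nucleotides), and net of length and GC Eif1 was called higher at 0.30 (adjusted p = 0.00186) and Eif1b was not called at -0.13 (adjusted p = 0.275). The share of Eif1b in the length-scaled counts of both genes was 11.8%, 11.9% and 12.3% in vehicle and 8.42%, 9.11% and 8.51% in PEox, a ratio that no scaling between libraries alters.

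The eIF1A genes Eif1ax and Eif1a both fell. Eif1ax had 126, 130.3 and 141 CPM in vehicle and 104, 94.8 and 87.3 in PEox (edgeR adjusted p = 0.00201, log2 fold change -0.48 ± 0.08 SE). The smaller fall of Eif1a, by 0.24 (edgeR adjusted p = 0.0163), no longer passed without vehicle library 1 (adjusted p = 0.0647), without vehicle library 2 (0.0616) or under library size scaling (0.247). Eif1a and Eif1ax encode near-identical proteins, so reads may be divided between them. Eif1ad, which encodes a protein with an eIF1A-like domain, fell from a mean of 113 ± 6.86 CPM (SD, n = 3) to 88.4 ± 2.81 (SD, n = 3; edgeR adjusted p = 0.00315).

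The eIF3 genes had 9 lower members, 5 that did not pass and 0 higher ones among 14, with a median log2 fold change of -0.37. Over all tested genes 18.8% fell and 18.3% rose. Eif3k, a small accessory subunit, had 265, 263 and 273 CPM in vehicle and 143, 139 and 127 in PEox, the largest fall of the 47 tested genes at -0.97 ± 0.06 SE (edgeR adjusted p = 1.02e-05). Its PEox values lay close to 50% of the vehicle values (ratio of means 0.51), far from any overlap. Net of length and GC it was -0.75 (adjusted p = 2.61e-05), when Eif4e3 had the larger fall. Eif3l, the partner of the eIF3k protein in the complex, had 298, 308 and 289 CPM in vehicle and 243, 252 and 229 in PEox, a smaller fall of 0.31 (edgeR adjusted p = 0.00212), or -0.20 net of length and GC.

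In the eIF3 octamer of subunits a, c, e, f, h, k, l and m, 6 of 8 genes fell, where 18.8% of all tested genes fell. Eif3e had 183, 196 and 189 CPM in vehicle and 131, 135 and 113 in PEox (edgeR adjusted p = 0.000507, log2 fold change -0.58). Eif3f, Eif3h and Eif3m fell by 0.49, 0.37 and 0.39 (edgeR adjusted p = 0.0109, 0.0105 and 0.00125). The call of Eif3h was lost net of length and GC (-0.07, adjusted p = 0.605) and under library size scaling (adjusted p = 0.0612). The scaffold genes of the octamer, Eif3a and Eif3c, did not pass. Eif3a had 285, 281 and 259 CPM in vehicle and 257, 245 and 262 in PEox (edgeR adjusted p = 0.147, log2 fold change -0.11), and was called lower net of length and GC (-0.29, adjusted p = 0.00546). Eif3c had 260.0, 263 and 236 CPM in vehicle and 256, 282 and 261 in PEox (edgeR adjusted p = 0.401, log2 fold change 0.07), and was called higher under library size scaling (0.21, adjusted p = 0.0225).

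Of the module of subunits b, g and i, which sits near the mRNA entry side, Eif3g and Eif3i fell and Eif3b did not pass. Eif3g had 249, 239.9 and 248 CPM in vehicle and 186, 181 and 174 in PEox (edgeR adjusted p = 0.000188, log2 fold change -0.45). It has a transcript of 1101 nucleotides, and net of length and GC its log2 fold change was -0.06 (adjusted p = 0.301). Eif3i fell by 0.37 (edgeR adjusted p = 0.00135). Eif3b had 429, 394 and 330.0 CPM in vehicle and 329.8, 344 and 339.7 in PEox, where vehicle library 3 lay within the PEox range, and without that library it passed as lower (-0.29, adjusted p = 0.00759). Eif3d, a subunit able to bind the cap of some mRNAs, had 182, 168 and 185 CPM in vehicle and 132, 120.2 and 137 in PEox and fell by 0.46 (edgeR adjusted p = 0.000966). The genes of the loosely bound j subunit, Eif3j1 and Eif3j2, did not pass (-0.28 and -0.14, edgeR adjusted p = 0.140 and 0.651).

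The eIF4A helicase genes moved in opposite directions. Eif4a1, the main helicase gene of proliferating cells, had 915, 782 and 859 CPM in vehicle and 701, 582 and 604 in PEox, and fell by 0.44 ± 0.08 SE in log2 units (edgeR adjusted p = 0.00353). Eif4a2, whose product is also tied to microRNA repression, had 106, 122 and 102 CPM in vehicle and 162, 156 and 160.2 in PEox, and rose by 0.54 ± 0.08 SE (edgeR adjusted p = 0.000800). Neither gene had overlapping groups, and both calls held net of length and GC (-0.47 and 0.51; adjusted p = 0.00354 and 0.000924). Eif4a3, the helicase of the exon junction complex, had 213, 217 and 232 CPM in vehicle and 180.4, 158 and 148 in PEox (edgeR adjusted p = 0.00254, log2 fold change -0.44), a call lost net of length and GC (-0.17, adjusted p = 0.0971). The processed pseudogene Eif4a-ps4 held 8063, 6069 and 7734 counts in vehicle and 5915, 4780 and 5430 in PEox, so that part of the reads of Eif4a1 may have been counted elsewhere.

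Within the length-scaled counts of the 3 helicase genes, the Eif4a2 share was 5.98%, 7.50% and 5.83% in the 3 vehicle libraries and 10.9%, 12.3% and 12.6% in the 3 PEox libraries. The share of Eif4a1 was 63.7%, 59.1% and 60.6% in vehicle and 58.4%, 56.4% and 58.3% in PEox. All PEox libraries had the higher Eif4a2 share and the lower Eif4a1 share. The level of a share depends on the length used, and with the longest transcript in place of the exon union the mean Eif4a2 share was 8.93% in vehicle and 16.2% in PEox.

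Of the helicase cofactors, Eif4b rose and Eif4h did not pass. Eif4b had 69.3, 77.3 and 76.2 CPM in vehicle and 112, 103 and 92.6 in PEox, without overlap (edgeR adjusted p = 0.00314, log2 fold change 0.47 ± 0.09 SE). Eif4h had 422, 424 and 365 CPM in vehicle and 354, 391 and 373 in PEox, with overlapping groups (edgeR adjusted p = 0.237, log2 fold change -0.12). Without vehicle library 3, its lowest vehicle value, Eif4h was called lower (-0.19, adjusted p = 0.0402).

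**Figure D3:**
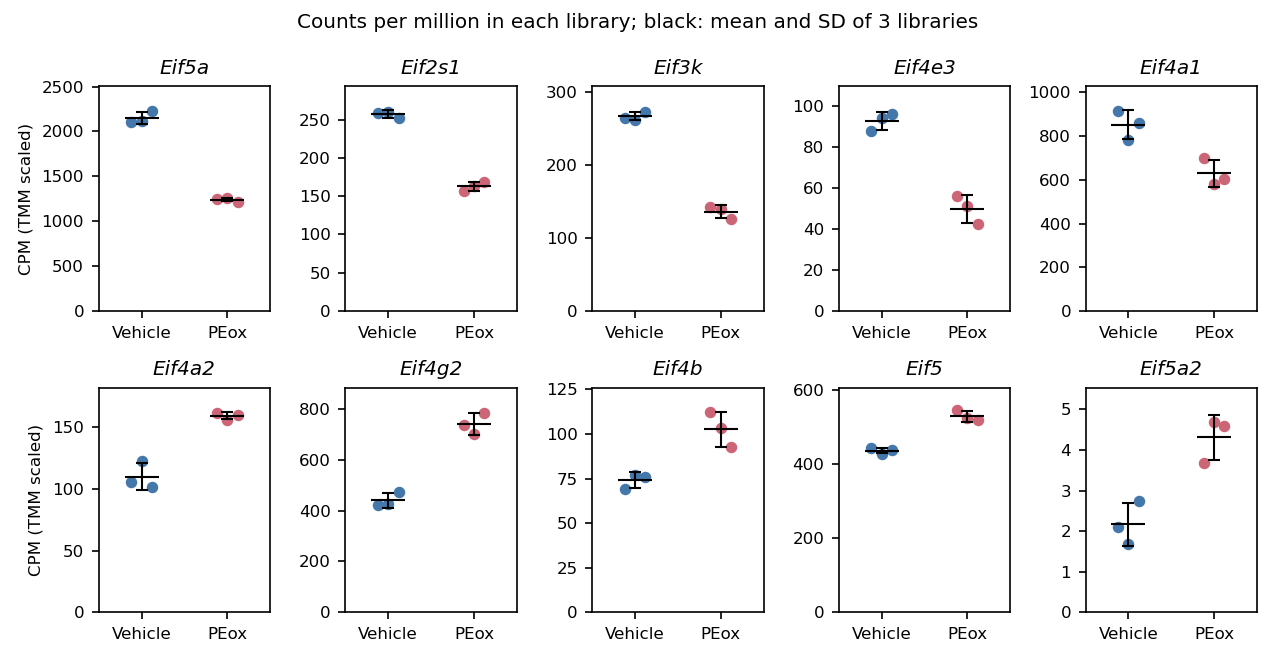
TMM-scaled CPM (y axes, from 0) in each of the 3 vehicle (blue) and 3 PEox (red) libraries for 10 initiation factor genes that passed the test; black lines are means with SD. In every panel the groups are apart: Eif5a, Eif2s1, Eif3k, Eif4e3 and Eif4a1 are lower in PEox and Eif4a2, Eif4g2, Eif4b, Eif5 and Eif5a2 higher. The panels were picked among called genes, and 50.6% of all tested genes were apart in either direction.

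The 3 tested genes of the cap-binding proteins fell, where 18.8% of all tested genes fell. Eif4e, the cap-binding subunit of eIF4F, had 290.4, 285 and 293 CPM in vehicle and 220.4, 223 and 234 in PEox (edgeR adjusted p = 0.000438, log2 fold change -0.36 ± 0.04 SE), or -0.54 net of length and GC. Eif4e3, a divergent cap binder, had 88.0, 94.2 and 96.2 CPM in vehicle and 56.1, 51.0 and 42.4 in PEox and fell by 0.90 ± 0.11 SE (edgeR adjusted p = 0.000321), more than the other cap binders. The fall of Eif4e2, whose product represses translation, was smaller at 0.19 (edgeR adjusted p = 0.0284), from 131, 131 and 138 CPM to 116, 121 and 114. It did not pass without vehicle library 1 (adjusted p = 0.0643), 2 (0.0705) or 3 (0.0901), without PEox library 1 (0.0724) or 3 (0.0694), or under library size scaling (0.523). The germline gene Eif4e1b had 0 counts in all 6 libraries, where 3 counts equal 0.0449 to 0.0533 CPM.

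Among length-scaled counts of Eif4e, Eif4e2 and Eif4e3, the share of Eif4e3 was 34.7%, 36.6% and 36.3% in vehicle and 30.0%, 27.6% and 23.8% in PEox. The share of Eif4e was 48.0%, 46.4% and 46.3% in vehicle and 49.3%, 50.5% and 54.9% in PEox. That of Eif4e2 was 17.3%, 17.0% and 17.4% in vehicle and 20.7%, 21.9% and 21.4% in PEox, higher in every PEox library, as was that of Eif4e with the exon union as length. With the longest transcript as length the mean Eif4e3 share was 27.7% in vehicle and 20.1% in PEox, and the Eif4e shares overlapped, at 44.5%, 43.2% and 43.0% in vehicle and 44.2%, 44.8% and 48.6% in PEox.

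The Eif4ebp genes, whose products bind eIF4E and keep it from eIF4G, and Eif4enif1 were not among the called ones. Eif4ebp1, which encodes the mTOR-controlled inhibitor 4E-BP1, had 58.3, 59.7 and 56 CPM in vehicle and 54.4, 67.5 and 61.2 in PEox, with overlapping groups (edgeR adjusted p = 0.595, log2 fold change 0.07). Eif4ebp2 had 34.2, 39.0 and 42.7 CPM in vehicle and 32.4, 36.5 and 33.4 in PEox (edgeR adjusted p = 0.250, log2 fold change -0.18), and was called lower net of length and GC (-0.42, adjusted p = 0.0185). Eif4ebp3 was under the filter with 5, 0 and 0 counts in vehicle and 9, 4 and 7 in PEox. Eif4enif1, which encodes the eIF4E transporter of the nucleus and of processing bodies, had 41.4, 40.7 and 40.8 CPM in vehicle and 50.5, 42.9 and 62.6 in PEox. Its groups were apart and PEox library 2 lay nearest to vehicle (log2 fold change 0.34, edgeR adjusted p = 0.0778, and 0.0158 without that library). DESeq2 called it higher (adjusted p = 0.0298).

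Of the eIF4G scaffold genes only Eif4g2 passed the test. Eif4g2 (ENSMUSG00000005610) encodes DAP5, an eIF4G relative that lacks the eIF4E-binding part and serves translation without eIF4E. It had 421, 424 and 474 CPM in vehicle and 734, 700.4 and 784 in PEox, a rise of 0.75 ± 0.06 SE in log2 units (edgeR adjusted p = 4.98e-05) with every PEox library far above the vehicle range. Its longest transcript has 7995 nucleotides, and net of length and GC the rise was 0.52 (adjusted p = 8.21e-05).

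Eif4g1 and Eif4g3, which encode scaffolds that do bind eIF4E, lay at log2 fold changes of 0.23 and 0.21 without passing (edgeR adjusted p = 0.127 and 0.176). Eif4g1 had 105, 93.7 and 94.6 CPM in vehicle and 112, 100. and 132 in PEox, passed without PEox library 2 (adjusted p = 0.0392), and both genes passed as higher under library size scaling (adjusted p = 0.0249 and 0.0387). Net of length and GC they lay at -0.02 and -0.09. The share of Eif4g2 in the length-scaled counts of the 3 genes was 68.6%, 70.4% and 71.8% in vehicle and 77.6%, 78.6% and 75.8% in PEox, higher in each PEox library. The difference between the fold changes of paralogues was not tested.

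**Figure D4:**
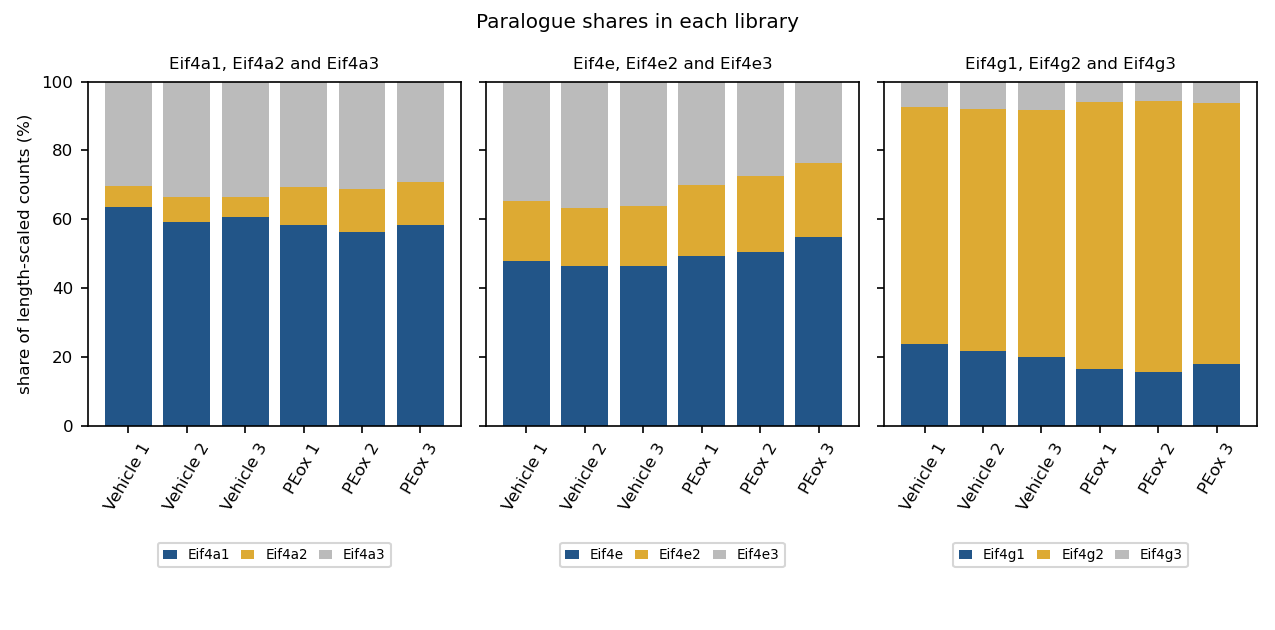
Share of each paralogue (y axis, percent of the length-scaled counts of its family) in each of the 6 libraries (x axis) for the eIF4A, eIF4E and eIF4G families. The Eif4a2 band is wider in the PEox libraries (10.9% to 12.6%) than in vehicle (5.83% to 7.50%), the Eif4e3 band narrower and the Eif4g2 band wider.

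Genes of the late steps split. Eif5, which activates GTP hydrolysis on eIF2 at the start codon, had 444, 429 and 439 CPM in vehicle and 547, 524 and 519.9 in PEox and rose by 0.28 ± 0.04 SE (edgeR adjusted p = 0.000917), or 0.15 net of length and GC (adjusted p = 0.0261). Its ratio of means was 1.21, the smallest rise among the 5 higher genes. Eif5b, which joins the large ribosomal subunit, had 101, 103 and 99.2 CPM in vehicle and 88.1, 104 and 83.5 in PEox and did not pass (edgeR adjusted p = 0.267, log2 fold change -0.14). Without PEox library 2, the high value, it was called lower (adjusted p = 0.0311), and likewise net of length and GC (-0.36, adjusted p = 0.0297).

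Eif5a encodes the hypusine-carrying factor that helps ribosomes through difficult stretches, and it had the highest level per length of the 49 genes in both groups, at 906 CPM per kb of exon in vehicle and 522 in PEox. It had 2109.7, 2119.9 and 2228 CPM in the 3 vehicle libraries and 1248, 1254 and 1218 in the 3 PEox libraries, a fall of 0.80 ± 0.04 SE (edgeR adjusted p = 2.9e-06). The spread within each group was small beside the gap between them, and net of length and GC the log2 fold change was -0.50 (adjusted p = 2.26e-05). Its paralogue Eif5a2 was scarce and moved the other way, with 2.11, 1.67 and 2.73 CPM in vehicle and 3.67, 4.68 and 4.59 in PEox (edgeR adjusted p = 0.0234, log2 fold change 0.99 ± 0.28 SE). The rise of Eif5a2 did not pass without vehicle library 1 (adjusted p = 0.0801) or 2 (0.0855), without PEox library 2 (0.0576) or 3 (0.0546), or net of length and GC (0.80, adjusted p = 0.0561). Eif5a2 made up at most 0.178% of the length-scaled counts of the pair in any library. Eif6, which keeps free large ribosomal subunits apart from small ones, had 466, 432 and 474 CPM in vehicle and 350.0, 347 and 333 in PEox (edgeR adjusted p = 0.000326, log2 fold change -0.41), or -0.13 net of length and GC (adjusted p = 0.0467).

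Other genes of translation and its control were read from a list of 46, all of which were tested. Of these 14 fell, 11 rose and 21 did not pass, 54.3% called where 37.1% of all tested genes were called in either direction. Most of the listed genes had more than 5 CPM in every library. With at least 5 CPM in 3 libraries, 60.6% of 10743 genes were called in either direction. Among the 7 genes with an Eef symbol 6 fell (Eef1a1, Eef1b2, Eef1d, Eef1e1, Eef1g and Eef2), where 18.8% of all tested genes fell, and Eef2k, the kinase that inhibits eEF2, did not pass (edgeR adjusted p = 0.94). The Eef1e1 product belongs to a tRNA synthetase complex, whereas the others that fell are elongation factor subunits or factors, with Eef1d, an exchange factor subunit, going from a mean of 227 ± 12.4 CPM (SD, n = 3) to 117 ± 3.08 (SD, n = 3) and Eef1b2 falling by 0.83 (edgeR adjusted p = 2.2e-05). Tma7, a ribosome-associated protein gene, and Rps6, a small-subunit protein gene, fell by 1.01 and 0.97 (edgeR adjusted p = 6.19e-06 and 1.37e-05).

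Of the named genes whose products act on eIF4A or eIF4E, Pdcd4, Cyfip1, Mknk1 and Mknk2 rose, whereas Gigyf2, Eif4ebp1 and Eif4ebp2 did not pass. Over all tested genes 18.3% rose. Pdcd4, whose product inhibits the eIF4A helicase, had 58.2, 51.3 and 53.6 CPM in vehicle and 90.0, 84.3 and 81.9 in PEox (edgeR adjusted p = 0.000304, log2 fold change 0.65). Cyfip1, whose product can hold eIF4E in a repressive complex and also acts on actin, had 74.0, 74.0 and 71.1 CPM in vehicle and 138, 149 and 164 in PEox (edgeR adjusted p = 2.38e-05, log2 fold change 1.04). Cyfip1 was named for its small p-value. Its relative Cyfip2, named here after its value was seen, rose by 0.31 (edgeR adjusted p = 0.0323). Net of length and GC, Cyfip2 lay at 0.04 (adjusted p = 0.761). Mknk2 and Mknk1, the kinases that phosphorylate eIF4E on the scaffold, rose by 1.20 and 0.55 (edgeR adjusted p = 0.000106 and 0.00171), Mknk2 from a mean of 28.7 ± 3.18 CPM (SD, n = 3) to 66.0 ± 7.13 (SD, n = 3).

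Ppp1r15a, the stress-induced subunit of the phosphatase that restores eIF2, had 125, 117 and 115 CPM in vehicle and 201, 221 and 215 in PEox (edgeR adjusted p = 2.43e-05, log2 fold change 0.84). Its constitutive counterpart Ppp1r15b lay at 0.32 without passing (edgeR adjusted p = 0.167). Denr and Mcts1, whose products form a dimer for reinitiation, fell by 0.40 and 0.85 (edgeR adjusted p = 0.000705 and 0.000301). Paip1, a stimulator that joins the poly(A)-binding protein to eIF4A, rose by 0.49 (edgeR adjusted p = 0.00689), and its antagonist Paip2 lay at -0.06 (adjusted p = 0.327). Paip2b, the relative of Paip2 and named here after its value was seen, rose by 0.57 (edgeR adjusted p = 0.0155).

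The enzymes that make hypusine on eIF5A also fell beside Eif5a. Dhps, the first enzyme, went from a mean of 42.1 ± 2.55 CPM (SD, n = 3) to 27.3 ± 1.39 (SD, n = 3; log2 fold change -0.62, edgeR adjusted p = 0.00107), or -0.30 net of length and GC (adjusted p = 0.0421). Dohh, the next enzyme, fell by 0.23 (edgeR adjusted p = 0.0293). It missed the threshold without vehicle library 1 (adjusted p = 0.0838) or 3 (0.101), without PEox library 2 (0.0687) or 3 (0.058) and under library size scaling (0.345), and Dohh lay at 0.06 net of length and GC. Larp1, a repressor of ribosomal protein mRNAs, fell by 0.26 (edgeR adjusted p = 0.0155; 0.0697 without vehicle library 1, 0.0502 without PEox library 2 and 0.184 under library size scaling), and lay at -0.54 net of length and GC (adjusted p = 0.000510). Abce1, which recycles ribosomes, rose by 0.36 (edgeR adjusted p = 0.0157; 0.065 without vehicle library 1 and 0.0671 net of length and GC). Gigyf2, the partner of the Eif4e2 product, did not pass (edgeR adjusted p = 0.372, log2 fold change 0.16).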

How the data were processed

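RNA of 6 libraries was sequenced as paired reads, cleaned with fastp and aligned with HISAT2 2.0.5, per the labels' protocols; edgeR 3.22.5 is named too, per the submitters' processing notes. The deposited values are raw counts per gene. For the counting program, build, annotation and strand setting the sources used here give nothing, so paralogues, pseudogenes and overlapping genes may share reads, and gene coordinates are not printed. Symbols came from a reference table (55141 of 55401 identifiers), biotypes and lengths from GENCODE M21, and promoters from RefSeq.

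Counts were tested in R 4.3.3 with edgeR 4.0.16 (filterByExpr, TMM factors between 0.951 and 1.05, robust quasi-likelihood test, group as the single term) and Benjamini-Hochberg adjustment over 18253 genes at 0.05. Standard errors are the log2 fold change over the root of F. CPM use the TMM factors. Depth was 56252806 to 66849230 counts; floors of 3 counts cover counting error only. Chi-square per gene between libraries of a group was 16.5 to 38.2, so each was kept as a replicate.

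Alternatives were RLE and library size scaling, no filter, 5 CPM in 3 libraries, the replicate block, each library left out, DESeq2 1.42.0, limma-voom 3.58.1 and removal of each library's loess trend (span 0.5, centred on its median) on length and GC of the longest transcript, alone and with the block. The paralogue lengths, the library size scaling of overlaps and the choice of promoter start were added after seeing the data. The procedure was run on simulated data with one fixed spread for all genes and a trend on length alone. These settings differ from the data, so the run does not show how well the procedure does here. Members, lists and motifs were chosen with earlier results of these data known. Named were all members and, of the pathway list, the 6 smallest p-values, genes acting directly on a member, the genes with an Eef symbol, Paip2b and Cyfip2. Of the ILC3 marker list 1 gene is not reported here. Columns of samples left unused numbered 0.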

Additional observations from a re-analysis of the deposited data

How the results depend on the processing

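The count of lower members stayed between 19 and 27 and that of higher members between 4 and 10 over all alternatives. Under library size scaling 10 members were higher and the median of the tested members was -0.11. With the length and GC trend removed the median was -0.17, alone and with the replicate block. Leaving out each library gave 4 to 6 higher and 20 to 24 lower members, where 13.2% to 16.1% of all genes were higher and 14.3% to 18.1% lower, and medians of -0.27 to -0.23. Of 27 called members, 19 (4 higher, 15 lower) kept direction and call under every alternative; Eif1a, Eif1b, Eif3g, Eif3h, Eif4a3, Eif4e2, Eif5a2 and Eif6 did not. With at least 5 CPM in 3 libraries 27 members were lower, where 29.6% of 10743 genes were lower and 60.6% called in either direction, Eif2b1, Eif2b3, Eif2b5, Eif3b and Eif3j1 being called in addition, and Eif4enif1 was called higher, while Eif5a2 was under that filter. Over 704 combinations of a tested member and an alternative, 623 kept both, 26 lost the call, 34 gained it and 21 turned sign. Every gene whose sign turned had not passed the test as reported, apart from Dohh. Eif1 turned to 0.0056 with RLE factors and with DESeq2, 0.14 under library size scaling and 0.30 with the trend removed (0.30 with the block as well), and ran from -0.0379 to 0.0436 when libraries were left out. Under library size scaling Eif2b4 lay at 0.074, Eif3a at 0.0248, Eif3j2 at 1e-04, Eif4h at 0.0207 and Paip2 at 0.0722. With the trend removed, and with the block in addition, Eif2b2 lay at 0.0791 and 0.0779, Eif2b4 at 0.11 and 0.10, Eif4g1 at -0.0175 and -0.0193, Eif4g3 at -0.0873 and -0.0883, Paip2 at 0.0455 and 0.0454, Gigyf2 at -0.0303 and -0.0336 and Dohh at 0.0595 and 0.0602. Over left-out libraries Eif3j2 ran from -0.32 to 0.0166 and Eif4ebp1 from -0.0104 to 0.15. The cause was not tested.

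The replicate block, which takes the numbers in the titles as pairs, gave 5 higher and 21 lower members, where 16.5% of all genes were higher and 17.2% lower, and a median of -0.24. Same-numbered libraries did not deviate together across genes (correlations of 0.0054, 0.0135 and -0.0058), so the numbers are not known to pair them. Eif4e2 and Dohh lost their calls under the block (adjusted p = 0.0626 and 0.0527), and Eif6 and Dhps lost theirs under the block with the trend removed (0.0842 and 0.0617).

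Depth limits Eif4ebp3 and Eif4e1b, which were under the filter, and Eif5a2, which had 95 to 278 counts in a library.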
